A study of Mus musculus with 6 samples.

Results

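The genes described here are 10 members of the switch that commits a cell in G1 phase to DNA synthesis: the D cyclins Ccnd1, Ccnd2 and Ccnd3, the E cyclins Ccne1 and Ccne2, the kinases Cdk4, Cdk6 and Cdk2, the brake Rb1 and the transcription factor E2f1. They were taken by gene name, or by an accession that maps to that name, from the gene spots of the array. All 10 were on the array, with 19 of its 41174 probes, among 28786 gene names. All 10 also passed the filter on dim probes, among 18062 genes tested.

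Mitogens raise D cyclins, which activate Cdk4 and Cdk6. These kinases, followed by cyclin E with Cdk2, phosphorylate the retinoblastoma protein encoded by Rb1, which then releases E2F factors. E2F factors drive genes of DNA replication, and also Ccne1, Ccne2 and E2f1. Neural stem cells need growth factors to keep this switch on and leave the cycle when growth factors are withdrawn.

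RNA came from cultures of subventricular zone neural stem cells of wild-type (WT) and Dnmt3a-null (KO) mice at postnatal day 14 to 21, grown as a monolayer with FGF-2 and EGF at 10 ng/ml each. Each of 6 Agilent arrays, with 2 colours, held WT RNA in one dye and KO RNA in the other, 500 ng of each. On 4 arrays both genotypes were proliferating, and on 2 arrays both were differentiating, after 2 days of replating with mitogen and 3 days without it. The labels call the arrays biological replicates without tying them to animals, so the p-values measure the spread between these arrays. The sources used here do not name the allele or Cre line behind the deletion. The dyes were swapped between arrays: KO RNA was in Cy5 on replicates 1 and 3 of the proliferating cells and on replicate 2 of the differentiating cells, elsewhere in Cy3.

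Between 52.3% and 59.1% of gene spots were well above background in each channel. Dnmt3a, the gene deleted, was lower in KO cells on all 6 arrays, with a log2 KO over WT ratio of -0.96 ± 0.22 (SD, n = 4) in proliferating and -1.38 ± 0.14 (SD, n = 2) in differentiating cells (limma, adjusted p = 0.0219 and 0.0154). Whether its probe lies in the deleted stretch is not stated. Of 10 neural stem and progenitor markers, 9 or 10 were well above background in every channel, and no microglial marker of 6 passed the filter. Proliferating replicate 4 stood apart in both channels, with a mean log2 level of G2 and mitosis genes of 10.35 in WT and 10.93 in KO cells, against at least 12.03 on replicates 1 to 3. On proliferating replicates 3 and 4 the channels also differed in 4 sex-linked genes (median log2 ratios of 2.07 and 2.71). The X-linked Xist reached log2 levels of 12.69 and 13.34 for WT RNA there, against 11.28 and 11.06 for KO RNA. The Y-linked Eif2s3y was at 6.22 and 5.54 for WT RNA, but at 10.44 and 11.1 for KO RNA. On the other arrays Xist was at most 6.08 and Eif2s3y at least 10.59 in every channel. Genotype and sex thus cannot be told apart on replicates 3 and 4. Calls of members that change without these arrays are given both ways. All proliferating arrays lay on 1 slide in 1 scan and both differentiating arrays on another slide in another scan.

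Promoter sequence shows what these genes hold at their starts. RefSeq windows (GRCm38.p6) were matched for 6 of the 10 members, Ccnd1, Ccnd2, Ccne2 and Rb1 being the others, and the 250 bases before the start are printed for the members that changed and for Cdk2. Capitals mark 4 kinds of word searched on both strands: the E-box CACGTG, bound by Myc family factors, the GC box GGGCGG, bound by Sp1, the cAMP response element TGACGTCA, and the E2F words TTTCCCGC, TTTCGCGC, TTTGCCGC and TTTGGCGC. In the printed windows no words of different kinds overlapped.
Cdk6, chr5:3343643-3343892, plus strand: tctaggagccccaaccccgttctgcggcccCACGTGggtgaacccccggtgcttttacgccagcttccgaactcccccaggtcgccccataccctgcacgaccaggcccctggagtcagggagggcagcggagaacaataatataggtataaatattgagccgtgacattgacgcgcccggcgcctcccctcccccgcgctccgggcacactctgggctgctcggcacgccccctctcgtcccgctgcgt
Cdk4, chr10:127063285-127063534, plus strand: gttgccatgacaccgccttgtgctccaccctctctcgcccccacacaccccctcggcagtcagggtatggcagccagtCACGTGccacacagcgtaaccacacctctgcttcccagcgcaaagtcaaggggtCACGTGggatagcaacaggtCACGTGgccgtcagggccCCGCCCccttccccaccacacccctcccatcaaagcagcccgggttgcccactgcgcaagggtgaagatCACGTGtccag
Ccne1, chr7:38107491-38107740, minus strand: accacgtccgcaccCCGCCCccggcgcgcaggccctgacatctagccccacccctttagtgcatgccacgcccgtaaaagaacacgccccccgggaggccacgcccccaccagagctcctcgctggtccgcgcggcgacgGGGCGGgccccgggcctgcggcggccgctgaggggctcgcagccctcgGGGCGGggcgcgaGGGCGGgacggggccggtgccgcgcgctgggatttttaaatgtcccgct
Cdk2, chr10:128705052-128705301, minus strand: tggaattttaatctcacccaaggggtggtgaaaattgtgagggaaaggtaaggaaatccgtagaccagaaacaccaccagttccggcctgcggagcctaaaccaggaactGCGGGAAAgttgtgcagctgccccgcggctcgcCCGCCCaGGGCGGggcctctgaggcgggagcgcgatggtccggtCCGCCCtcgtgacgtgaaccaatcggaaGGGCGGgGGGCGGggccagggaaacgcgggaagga
Cdk4 held 4 E-boxes, which begin 172, 118, 98 and 11 bases before the start; 6.02% of 32841 such windows of the genome held any E-box and 0.0213% held at least 4. Cdk6 held 1 E-box, 220 bases before its start, and no other searched word. An E2F word was found only in the Cdk2 window among the windows printed, as GCGGGAAA on the printed strand, 140 bases before the start, against 1.86% of all windows. Ccne1 held 4 GC boxes and Cdk2 held 5, against 4.09% of all windows with at least 4 and 1.93% with at least 5. The windows of Cdk6 and Ccne1 held 22 and 34 CpG dinucleotides, the steps that DNA methyltransferases methylate, against a median of 6, and 14.8% and 3.53% of all windows held as many. These letters describe the windows, and neither methylation nor factor binding was measured here.

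The first comparison asks which members of the switch differ between Dnmt3a-null and WT cells while both proliferate. Of the 10 members, Cdk6 rose in KO cells and no member fell. Of all 18062 genes tested, 0.952% passed in either direction, 0.615% higher and 0.338% lower (limma, Benjamini-Hochberg adjusted p under 0.05). The members' median log2 ratio was 0.24, against -0.01 over all genes, and 7 of the 10 had a mean ratio above 0. The members above 0 numbered 3, 10, 6 and 7 on replicates 1 to 4, so the arrays differed widely. The lower counts were on replicates 1 and 3, with KO RNA in Cy5. Ccnd1, Ccnd2, Ccnd3, Ccne2, Cdk2 and Cdk4 each had higher ratios on both Cy3 arrays than on either Cy5 array. Cdk6 went the other way, and Ccne1, Rb1 and E2f1 did not split by dye. These patterns are those of each gene's brightest probe. Other probes could differ: the second E2f1 probe did split by dye, and the second Ccne2 probe did not.

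**Figure D1:**
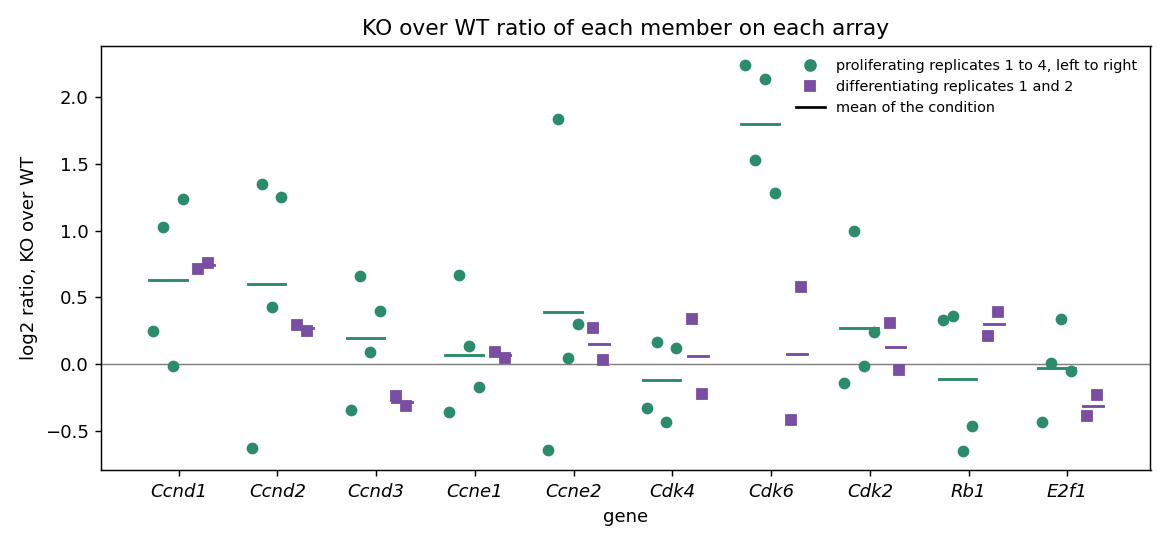
Log2 ratio of KO over WT (y axis) for each member (x axis), 1 point per array: circles are proliferating replicates 1 to 4 and squares differentiating replicates 1 and 2, with horizontal lines at the mean of each condition. Cdk6 is the member whose 4 proliferating arrays all lie above 1, from 1.28 to 2.24, while its differentiating arrays lie at -0.42 and 0.58.

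Cdk6 encodes one of the catalytic partners of the D cyclins. At its brightest probe (A_51_P489779, designed on transcript AK030810, chromosome 5, 3535293 to 3535352 on the plus strand, build mm7), the log2 level in WT cells was 8.02, 8.07, 8.01 and 9.0 on proliferating replicates 1 to 4. In KO cells it was 10.26, 9.61, 10.15 and 10.28 on the same arrays. Every KO value lay above every WT value, and the WT value of replicate 4 was the WT value nearest to the KO range.

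The log2 ratio of Cdk6 was 2.24, 1.53, 2.14 and 1.28 on these arrays, a mean of 1.80 ± 0.47 (SD, n = 4), or 3.48-fold. The fit gave an SE of 0.08 and a 95% interval of 1.61 to 1.99 (limma, adjusted p = 0.0111). Cdk6 had the smallest p of all genes tested and ranked 44 by the size of its rise. The 2 arrays with KO RNA in Cy5 had the higher ratios, and the dye term of the fit, which takes up such a difference, was 0.43; without a dye term the ratio was 1.80 with an adjusted p of 0.0161. Without replicate 4 the ratio was 1.84 (adjusted p = 0.0285), and without replicates 3 and 4 it was 1.89 (adjusted p = 0.0141). Fitted on the 4 proliferating arrays alone, the ratio was 1.80 with an adjusted p of 0.0795 by limma, and no gene passed, with 2275 at an unadjusted p under 0.05. It was likewise 1.80 with an adjusted p of 0.0795 when either differentiating array was left out.

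The array holds 2 more Cdk6 probes, both designed on the transcript NM_009873 and both dim. Probe A_51_P388310 (chromosome 5, 3527675 to 3527734) had ratios of 0.37, 0.19, 0.37 and 0.10, a mean of 0.26 ± 0.13 (SD, n = 4), and was well above background in KO cells on 2 of 4 proliferating arrays and in WT cells on none. Probe A_52_P417489 (chromosome 5, spanning 3479226 to 3521510) had ratios of 0.32, 0.41, 0.46 and 0.22, a mean of 0.35 ± 0.10 (SD, n = 4), and was not well above background in either genotype. Being dim, these probes give neither a direction nor a size for Cdk6, so its result rests on 1 probe. With the mean over the 3 probes in place of the brightest, the ratio was 0.80 (limma, adjusted p = 0.0158).

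**Figure D2:**
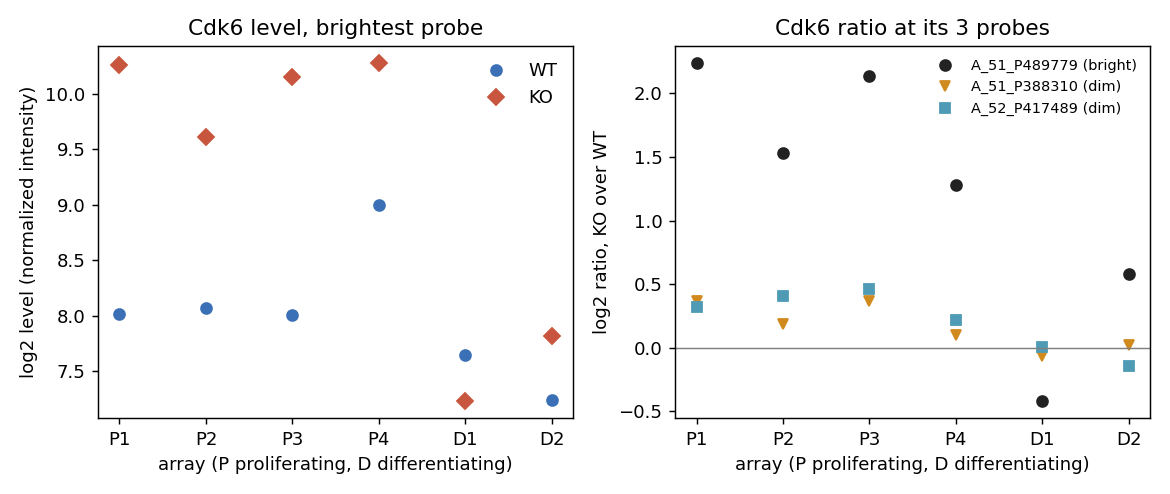
Left, log2 level of Cdk6 (normalized intensity, y axis) in WT and KO channels on each array (x axis) at the brightest probe; right, log2 KO over WT ratio at its 3 probes. The KO points of the proliferating arrays, from 9.61 to 10.28, lie above the WT points, from 8.01 to 9.0. On the differentiating arrays the genotypes cross, KO lying lower where its RNA was in Cy3 and higher where it was in Cy5.

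Oligodendroglial markers, as a list, were also higher in proliferating KO cells. Of 10 such markers, 9 had a mean ratio above 0 in proliferating cells and 2 rose, and their mean log2 level was 9.63 to 10.87 in WT and 10.80 to 12.63 in KO channels. The median ratio of the marker list was 0.57, 1.09, 1.86 and 2.02 on replicates 1 to 4, the arrays on which Cdk6 had 2.24, 1.53, 2.14 and 1.28. The order of the Cdk6 values goes with dye, so it cannot show whether Cdk6 and the markers vary together. In differentiating KO cells the list had a median of 1.53, with 3 of 10 markers rising, where Cdk6 had 0.08. The part of these cells in the Cdk6 ratio was not tested, and in bulk samples more cells of a type cannot be told apart from more RNA per cell.

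The D cyclins, which couple growth factor signals to the switch, did not pass in proliferating KO cells. Ccnd1 had ratios of 0.25, 1.03, -0.01 and 1.24, with the high values on the 2 arrays that carry KO RNA in Cy3, and its fitted ratio was 0.63 with a 95% interval of 0.25 to 1.00. It passed in 1 alternative, median centring in place of loess, at 0.74 (limma, adjusted p = 0.0480). Ccnd2 had ratios of -0.63, 1.35, 0.43 and 1.25 at its brightest probe, a mean of 0.60 ± 0.92 (SD, n = 4; limma, adjusted p = 0.311). Its other probes had means of 0.63 and 0.49 and the same sign on every array, so the spread of Ccnd2 lay between arrays and not between probes. Ccnd3 had ratios of -0.34, 0.66, 0.09 and 0.40 (mean 0.20 ± 0.43, SD, n = 4; limma, adjusted p = 0.473).

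All 3 D cyclins were lower in KO than in WT cells, or nearly equal, on some arrays and higher on others. Replicate 2 had the highest ratio of the 4 arrays for Ccnd2 and Ccnd3, and replicate 4 for Ccnd1.

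Of the E cyclins, activators of Cdk2 and themselves E2F targets, Ccne1 had ratios of -0.36, 0.67, 0.14 and -0.17. Its fitted ratio was 0.07 with a 95% interval of -0.34 to 0.47 (limma, adjusted p = 0.897), which leaves room for changes of either sign. Ccne2 had ratios of -0.64, 1.84, 0.05 and 0.30, and its signal was well above background on 3 of 4 proliferating arrays in each genotype. Its interval ran from -0.35 to 1.12 (limma, adjusted p = 0.593). For both E cyclins replicate 1 was the lowest and replicate 2 the highest array.

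Of the remaining kinases, Cdk4, the other partner of the D cyclins, had ratios of -0.33, 0.17, -0.43 and 0.12, negative where KO RNA carried Cy5 and positive where it carried Cy3. The same held on the differentiating arrays, at 0.34 with Cy3 and -0.22 with Cy5, and its dye term was -0.27 (limma, adjusted p = 0.167; no gene's dye term passed). With dye balanced in the fit, the Cdk4 ratio was -0.12 in proliferating and 0.06 in differentiating cells, with intervals of -0.27 to 0.03 and -0.15 to 0.28. Cdk2, the partner of the E cyclins, had ratios of -0.14, 1.00, -0.01 and 0.24 (limma, adjusted p = 0.398).

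Rb1, the brake that these kinases release, had ratios of 0.33, 0.36, -0.65 and -0.46. The 2 arrays above 0 and the 2 below it differed by more than the values within each, and the arrays below 0 were those whose channels differed in sex-linked genes. Without those arrays, replicates 3 and 4, the ratio of Rb1 was 0.34 (limma, adjusted p = 0.362), a change of sign in a value that did not pass. The fitted ratio of Rb1 was -0.11, with a 95% interval of -0.61 to 0.40 (limma, adjusted p = 0.868). E2f1, the transcription factor released from the retinoblastoma protein, had ratios of -0.43, 0.01, 0.34 and -0.05 at its brightest probe. The mean was -0.03 ± 0.32 (SD, n = 4) and the adjusted p 0.941 (limma). Its other probe, with 10 spots and well above background on all arrays, had ratios of -0.95, 0.70, -0.15 and 0.05. That probe was higher on both Cy3 arrays than on either Cy5 array, and differed in sign from the brightest on replicates 3 and 4.

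The second comparison sets KO against WT cells after growth factor withdrawal. None of the 10 members passed, while 3.08% of all genes tested did, 2.18% higher and 0.902% lower (limma, adjusted p under 0.05), and 1 member, Ccnd1, had an unadjusted p under 0.05. The members' median ratio was 0.11, against -0.01 over all genes. With 2 arrays, agreement in sign says little: 30.4% of all genes were above 0 and 30.5% below 0 on both.

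Cdk6 values of the genotypes overlapped here. Its log2 level was 7.65 and 7.24 in WT and 7.23 and 7.82 in KO cells on differentiating replicates 1 and 2, with neither genotype higher on both arrays. The ratio was -0.42 with KO RNA in Cy3 and 0.58 with KO RNA in Cy5, so its sign went with dye. The mean was 0.08 ± 0.70 (SD, n = 2). The fit takes up such a difference in its dye term, 0.43 for Cdk6, and gave an interval of -0.19 to 0.35 (limma, adjusted p = 0.792). Subtracting the KO effect in proliferating cells from that in differentiating cells gave -1.72 for Cdk6, with a 95% interval of -2.04 to -1.39 (limma, adjusted p = 0.0443). Cdk6 was 1 of 9 genes to pass that test, 0.0498% of those tested (0.0332% higher and 0.0166% lower), and no other member passed it. This call was close to the threshold: the difference ranged from -1.99 to -0.81 over 15 alternatives and passed in 4. Leaving out any 1 array ended it, with -1.76 (adjusted p = 0.111) without proliferating replicate 4.

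Ccnd1 had ratios of 0.71 and 0.76 in differentiating cells, and its log2 level was 8.59 and 9.06 in WT cells, then 9.31 and 9.82 in KO cells on the same arrays. It had the highest mean ratio of the 10 members here, and limma gave an adjusted p of 0.157. Fitted on the differentiating arrays alone without a dye term, where 1 residual degree of freedom is left, it passed (adjusted p = 0.0145) among 1586 genes. Ccnd2 had ratios of 0.29 and 0.25, Ccnd3 of -0.24 and -0.31, and Ccne1 of 0.09 and 0.05. Rb1 had ratios of 0.21 and 0.39 and E2f1 of -0.39 and -0.23. Adjusted p-values of these 5 genes ran from 0.482 to 0.925 (limma). Cdk2 and Ccne2 were not well above background in either genotype on either differentiating array, so their ratios there carry no direction.

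The remaining comparisons follow each genotype from proliferating to differentiating cells, where growth factors had been withdrawn. In WT cells 5 of the 10 members fell and none rose, and 14% of the 18050 genes tested passed (limma separate-channel fit, adjusted p under 0.05), 7.41% higher and 6.58% lower. In KO cells 4 of the 10 fell and none rose, against 14.4% of all genes, 7.68% higher and 6.74% lower. The 5 in WT cells were Ccnd1, Ccnd2, Ccne1, Cdk4 and Cdk6, and the 4 in KO cells were the same genes without Cdk4. The members' median log2 change was -0.98 in WT and -1.52 in KO cells, against 0.00 over all genes in both. Slide, scan and condition cannot be told apart in these comparisons.

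**Figure D3:**
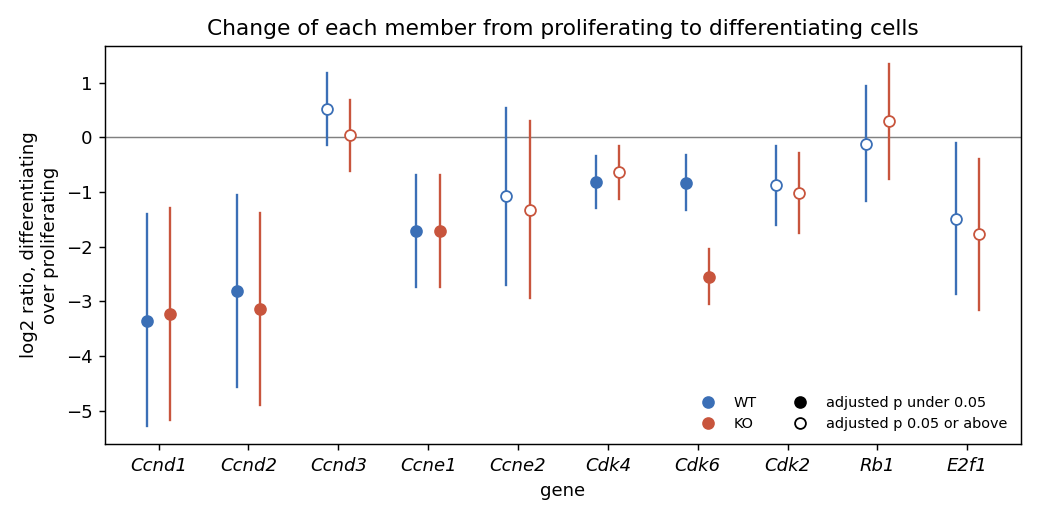
Log2 ratio of differentiating over proliferating cells (y axis) for each member (x axis) in WT and KO cells, with 95% intervals as bars; filled points passed at an adjusted p under 0.05. Ccnd1 and Ccnd2 lie near -3 in both genotypes, while Cdk6 lies at -0.83 in WT and -2.55 in KO cells.

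Ccnd1 had log2 levels of 12.14, 12.42, 14.30 and 9.84 in proliferating WT cells and 8.59 and 9.06 in differentiating ones. In KO cells it had 12.39, 13.45, 14.29 and 11.07 and then 9.31 and 9.82. Conditions did not overlap in either genotype, and proliferating replicate 4 was the array nearest to the differentiating range. Ccnd1 fell 10.2-fold in WT (log2 -3.35 ± 0.87 SE; limma, adjusted p = 0.0328) and 9.41-fold in KO cells (-3.23 ± 0.87 SE; adjusted p = 0.0359). Without proliferating replicate 4 the falls were 17.1-fold (adjusted p = 0.0029) and 14.6-fold (adjusted p = 0.00333), and without replicate 3 they were 6.32-fold (adjusted p = 0.066) and 6.41-fold (adjusted p = 0.0653), which did not pass. Over 13 alternatives the log2 change of Ccnd1 ran from -4.10 to -2.66 in WT and from -3.87 to -2.68 in KO cells, and it passed in 8 and 7 of them.

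Ccnd2 had levels of 15.07, 14.44, 14.78 and 11.84 in proliferating and 11.12 and 11.33 in differentiating WT cells. In KO cells it had 14.44, 15.79, 15.22 and 13.09 and then 11.41 and 11.58. It fell 7-fold in WT (limma, adjusted p = 0.0418) and 8.8-fold in KO cells (adjusted p = 0.0280), and without replicate 4 11.2-fold (adjusted p = 0.00277) and 13.4-fold (adjusted p = 0.00179). Over the alternatives its log2 change ran from -3.54 to -2.27 in WT and from -3.74 to -2.62 in KO cells, and it passed in 4 and 6 of 13. Ccnd3 did not pass: its level was 10.72, 10.59, 10.96 and 10.02 in proliferating and 11.09 and 11.08 in differentiating WT cells, a log2 change of 0.51 with an interval of -0.14 to 1.17 (limma, adjusted p = 0.259). In KO cells the change of Ccnd3 was 0.04, with an interval of -0.62 to 0.69. Ccnd3 was thus the D cyclin without a fall in its measured means.

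**Figure D4:**
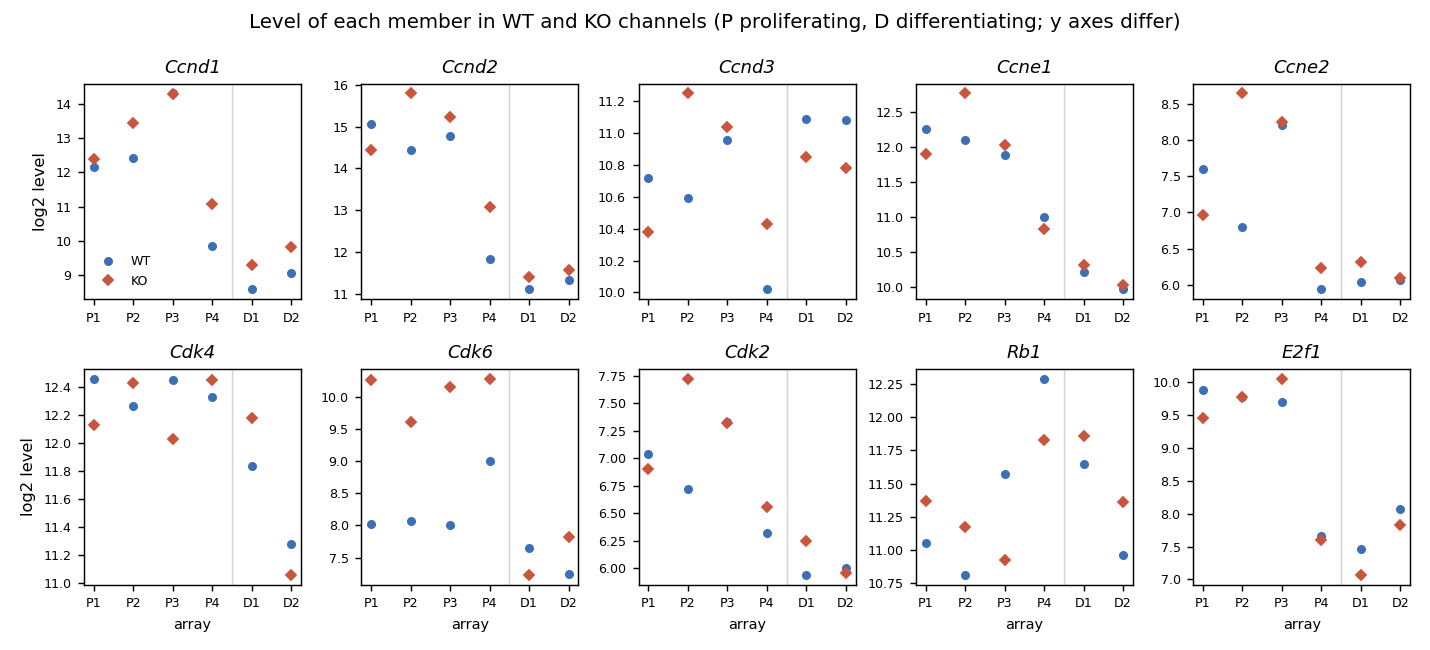
Log2 level (normalized intensity, y axis, which differs between panels) of each member in WT and KO channels of each array (x axis). Ccnd1, Ccnd2, Ccne1, Ccne2, Cdk2 and E2f1 have their lowest proliferating values on replicate 4 in both genotypes, whereas Cdk6, Cdk4 and Rb1 do not.

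Ccne1 had levels of 12.26, 12.10, 11.89 and 11 in proliferating and 10.22 and 9.97 in differentiating WT cells, and fell 3.29-fold (limma, adjusted p = 0.0361). In KO cells it had 11.90, 12.77, 12.03 and 10.83 and then 10.31 and 10.03, a fall of 3.28-fold (adjusted p = 0.0356). Without replicate 4 Ccne1 fell 3.88-fold (adjusted p = 0.00382) and 4.31-fold (adjusted p = 0.00241), and it passed in 5 of 13 alternatives in each genotype. Ccne2 was not well above background on any differentiating array, so the difference of its means can only be bounded, at 2.1-fold in WT and 2.49-fold in KO cells. The conditions overlapped: proliferating replicate 4 was at 5.94 in WT and 6.23 in KO cells. The differentiating arrays were at 6.04 and 6.07 in WT and at 6.31 and 6.10 in KO cells. Ccne2 did not pass in either genotype (limma, adjusted p = 0.340 and 0.238), with intervals of -2.70 to 0.54 and -2.94 to 0.30. Without replicate 4 it passed in KO cells (limma, adjusted p = 0.046). These bounds set the bright group's mean against the lowest signal well above background on the dim arrays, or the probe's own signal where that is higher.

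Cdk6 fell in both genotypes, from different starting levels to overlapping ends. In WT cells the change was -0.83 ± 0.22 (SE), or 1.78-fold (limma, adjusted p = 0.0377). In KO cells it was -2.55 ± 0.22 (SE), or 5.85-fold (limma, adjusted p = 0.000991), the seventh smallest p of all 18050 genes. The KO fall of Cdk6 passed in all 13 alternatives, with changes from -3.33 to -1.20, whereas the WT fall passed in 5 of 13 and was 1.56-fold (adjusted p = 0.0316) without replicate 4. Cdk4 fell 1.77-fold in WT cells, from 12.46, 12.27, 12.45 and 12.33 to 11.84 and 11.28 (limma, adjusted p = 0.0328). In KO cells Cdk4 went from 12.13, 12.43, 12.03 and 12.45 to 12.18 and 11.06, a change of -0.64 (adjusted p = 0.0709), with the first differentiating array inside the proliferating range. Cdk2, dim on all differentiating arrays, did not pass in WT or KO cells (limma, adjusted p = 0.101 and 0.0641). From the means of its levels the bound on its fall was 1.78-fold in WT and 2.03-fold in KO cells. Without replicate 4 Cdk2 passed in both (limma, adjusted p = 0.0239 and 0.00775), as it did with Agilent's processed signals (adjusted p = 0.00591 and 0.0115). With those signals its measured log2 change was -3.22 in WT and -2.85 in KO cells, against -0.88 and -1.02 in the main fit.

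Rb1 did not pass in either genotype. Its level was 11.05, 10.81, 11.57 and 12.29 in proliferating and 11.65 and 10.96 in differentiating WT cells, and the conditions overlapped in both genotypes. The change was -0.12 in WT and 0.29 in KO cells, with intervals of -1.17 to 0.93 and -0.76 to 1.34 (limma, adjusted p = 0.887 and 0.707). E2f1 had 9.89, 9.77, 9.70 and 7.66 in proliferating and 7.46 and 8.07 in differentiating WT cells, with replicate 4 inside the differentiating range. Its change was -1.49 in WT (limma, adjusted p = 0.134) and -1.77 in KO cells (adjusted p = 0.0824). Without replicate 4 E2f1 passed in both, with falls of 4.05-fold (adjusted p = 0.00476) and 4.91-fold (adjusted p = 0.00236).

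Which members passed after withdrawal depended on single arrays. Without proliferating replicate 4, 6 of 10 members fell in WT and 7 of 10 in KO cells. Of all 18052 genes then tested, 3735 (20.7%) passed in WT and 4635 (25.7%) in KO cells, of which 1826 and 2234 were lower. Without proliferating replicate 1, 2 or 3, no member passed in WT cells, where 3.51%, 3.72% and 5.46% of all genes still did. In KO cells Cdk6 was the 1 member that passed in each of these cases, against 2.28%, 3.28% and 4.8% of all genes. Without differentiating replicate 1 or 2, which leaves 1 differentiating array, the log2 change of Cdk6 in KO cells was -2.5 and -2.67. Without proliferating replicates 3 and 4 together, Ccnd1 and E2f1 fell in WT and Ccnd1, Cdk6 and E2f1 in KO cells. Of all 18055 genes then tested, 5.38% passed in WT and 6.7% in KO cells, with 548 and 620 genes lower.

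Other genes of the same pathway were counted from lists. Of 11 Rb family members, E2F factors and their partners, none passed in proliferating KO cells, and E2f2, an activating E2F factor, rose in differentiating KO cells. E2f2 had ratios of 1.34 and 2.37 there, a mean of 1.86 ± 0.72 (SD, n = 2; limma, adjusted p = 0.0266), while E2f1 had -0.39 and -0.23. From proliferating to differentiating cells E2f2 fell 7.72-fold in WT (limma, adjusted p = 0.00279) and 3.31-fold in KO cells (adjusted p = 0.0217). E2f8, a repressor of the family, fell at least 4.32-fold in WT and 3.5-fold in KO cells (limma, adjusted p = 0.0122 and 0.0215), and Rbl1, which encodes the Rb relative p107, fell in WT cells (3.19-fold; adjusted p = 0.0318).

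Of 7 CDK inhibitors, 1 rose and 1 fell in KO cells of each condition. They were Cdkn1c, encoding p57, and Cdkn1b, encoding p27. Cdkn1c was higher in KO cells on all 6 arrays, with ratios of 0.53, 1.09, 1.15 and 1.17 in proliferating and 1.46 and 1.38 in differentiating cells (limma, adjusted p = 0.0321 and 0.0206). Cdkn1b was lower on all 6, at -0.48, -1.47, -0.43 and -1.09 and then -1.13 and -0.24 (adjusted p = 0.0203 and 0.0477). In proliferating cells each gene passed in 7 of 16 alternatives, Cdkn1c with ratios from 0.81 to 1.15 and Cdkn1b from -0.97 to -0.34. In differentiating cells Cdkn1c passed in 13 of 16, and Cdkn1b in 3 of 16, with ratios from -0.77 to -0.21 and an adjusted p of up to 0.603. Without proliferating replicate 4 Cdkn1c did not pass in proliferating cells (0.95, adjusted p = 0.131), nor did Cdkn1b in proliferating (-0.95, adjusted p = 0.0582) or differentiating cells (-0.69, adjusted p = 0.0524). Without replicates 3 and 4 together, Cdkn1c did not pass in proliferating cells (0.81, limma adjusted p = 0.0924), whereas Cdkn1b did (-0.97, adjusted p = 0.0463). In differentiating cells both then passed (limma, adjusted p = 0.0112 for Cdkn1c and 0.0442 for Cdkn1b). Cdkn2c, encoding the Cdk4 and Cdk6 inhibitor p18, fell after withdrawal, 2.53-fold in WT (limma, adjusted p = 0.00292) and 1.72-fold in KO cells (adjusted p = 0.0229). Cdkn2a, the locus of p16 and p19Arf, fell 4.61-fold in WT (adjusted p = 0.0172) and 3.42-fold in KO cells (adjusted p = 0.0364), and Cdkn1a, encoding p21, fell in WT cells. Of 9 genes of CDK activation and cyclin turnover, Cks1b alone passed in any of these comparisons, falling 2.88-fold in KO cells after withdrawal (limma, adjusted p = 0.0452).

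Downstream of the switch, none of 20 S phase genes driven by E2F passed in proliferating KO cells, although 17 had a ratio above 0 (median 0.17). On single arrays their median was -0.22, 0.38, 0.20 and 0.25, and that of the 10 switch members was -0.33, 0.83, 0.07 and 0.27, both lowest on replicate 1 and highest on replicate 2. In differentiating KO cells 3 of the 20 rose, against 2.18% of all genes: Mcm6, of the replication helicase, at 1.68 ± 0.18 (SD, n = 2; limma, adjusted p = 0.0232), Ccna2, encoding cyclin A, at 1.63 ± 0.02 (adjusted p = 0.0183), and Cdt1, a licensing factor, at 0.98 ± 0.37 (adjusted p = 0.0288). Their median was 0.47, while the 10 switch members had 0.11 and none passed.

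Further along the cycle, of 10 G2 and mitosis genes, 9 rose in differentiating KO cells, with a median of 1.17, among them Mki67, a marker of cycling cells, at 2.28 ± 0.08, Cdc20, which activates the anaphase-promoting complex, at 2.19 ± 0.06, and Aurka, a mitotic kinase, at 1.42 ± 0.16 (SD, n = 2; limma, adjusted p = 0.0153, 0.0134 and 0.0129). In proliferating cells all 10 had ratios above 0 (median 0.37) and none passed. On the same differentiating arrays 5 of 9 neuronal markers fell in KO cells (median -1.38), and the mean log2 level of all 9 was 10.44 and 10.19 in the WT channels against 9.19 and 8.98 in the KO channels. Markers that rose there were 3 of 3 tested of ependyma and choroid plexus (median 1.44), 3 of 10 of oligodendroglia (median 1.53) and 1 of 6 of astrocytes (median 1.39). Of 10 neural stem and progenitor markers 1, Prom1, also rose, while 7 of the 10 had a ratio below 0 (median -0.5). The part of cell composition in the ratios of the cycle genes was not tested.

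**Figure D5:**
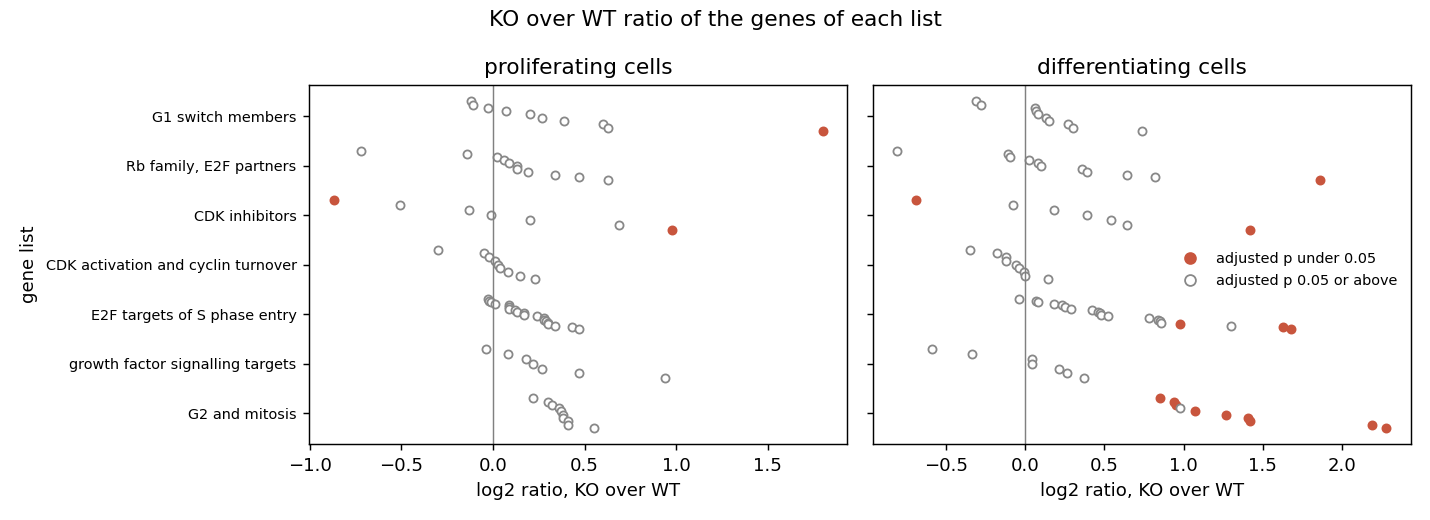
Log2 ratio of KO over WT (x axis) of each tested gene of the members and of 6 pathway lists (y axis), in proliferating (left) and differentiating cells (right); filled points passed at an adjusted p under 0.05. In differentiating cells 9 of 10 G2 and mitosis genes and 3 of 20 S phase genes are filled, and none of the 10 members.

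After withdrawal, all 10 G2 and mitosis genes fell in both genotypes, with medians of -3.94 in WT and -2.93 in KO cells. In WT cells Aurkb and Bub1 were not well above background after withdrawal, so they have only bounds, at least 8.81-fold and 11.8-fold. Of the 20 S phase genes, 12 fell in WT (median -2.17) and 5 in KO cells (median -1.75), and all 20 were below 0 in both. Ccna2 fell 19.9-fold in WT (limma, adjusted p = 0.0011) and 7.81-fold in KO cells (adjusted p = 0.00611). No gene of either list passed the test of the difference between KO effects. Among 7 tested targets of growth factor signalling, Etv5 and Dusp6, which respond to FGF signals, fell in both genotypes: Etv5 fell 5.88-fold in WT (limma, adjusted p = 0.0169) and 6.05-fold in KO cells (adjusted p = 0.016), and Dusp6 fell 6.78-fold in WT cells (adjusted p = 0.0388). In KO cells 1 Dusp6 spot was saturated, so the size of its fall (adjusted p = 0.0169) is not given. Without proliferating replicate 4, the list genes named for withdrawal, other than Aurkb and Bub1, for which this was not run, still passed in the genotypes where they are named. Without replicates 3 and 4 together, Cdkn1a in WT (adjusted p = 0.101), Cdkn2c in KO (adjusted p = 0.0682) and Dusp6 in both (adjusted p = 0.122 in WT and 0.0788 in KO cells) did not pass.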

How the data were processed

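Scanner output of 6 arrays was used. Per the file headers, its intensity columns (each spot's mean signal and local background, by dye) were written by Agilent Feature Extraction 9.5.1.1. A deposited table of log10 ratios served as a check: it equals the scanner's log10 ratios turned to KO over WT. In R 4.3.3, limma 3.58.1 (with statmod 1.5.0; files read with the data.table package, version 1.17.8) applied normexp background correction with an offset of 50, then loess within each array, with control and outlier spots at weight 0. A gene's brightest probe was used, and kept if either channel was well above background on 2 or more arrays. The log2 KO over WT ratios were fitted in limma by condition with a term for dye (3 residual and 2.56 prior degrees of freedom). Levels and changes between conditions are log2 intensities after Aquantile, fitted by separate channels in limma (intraspot correlation 0.764). Adjusted p-values are 2-sided Benjamini-Hochberg values over all genes. The fits were tested on simulated data, and alternatives are in the closing section.

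Named were all members, Dnmt3a and up to 4 genes of smallest p per pathway list and comparison among those that passed; Aurkb and Bub1 were added after their values were seen. Members and lists were chosen with earlier results of these data known. Probe positions are on mm7, per the file headers; exons and UTRs there were not annotated here. The number of arrays limits the precision.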

Additional observations from a re-analysis of the deposited data

Results flagged for a closer look

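Of 30 groups of 4 proliferating values (ratio, WT level and KO level of each member), 2 held an array far from the other 3, and chance gives about 1 in 20. Both lay on replicate 4. The log2 level of Cdk6 in WT cells was 9.0 there, against 8.01 to 8.07 on the other arrays, and that of E2f1 in WT cells was 7.66, against 9.70 to 9.89. Replicate 4 was thus the highest array for Cdk6 and the lowest for E2f1 in the same channel.

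The effect of the deletion on Cdk6 differed between the conditions by -1.72 on the log2 scale (limma, adjusted p = 0.0443), with a rise in proliferating cells and overlapping values in differentiating cells.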

How the results depend on the processing

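Of 720 member values under alternatives, 589 kept their direction and their side of the threshold, 73 lost and 13 gained a call, and 45 that never passed changed sign; no called value changed sign. Leaving out 1 array at a time gave these ranges of members and genes called. KO over WT in proliferating cells had 0 to 1 members and 0 to 171 genes, and in differentiating cells 0 members and 0 to 534 genes. The difference had 0 members and 0 genes, with 920 to 2590 genes at an unadjusted p under 0.05. Withdrawal had 0 to 6 members and 161 to 3735 genes in WT, and 1 to 7 members and 132 to 4635 genes in KO cells. A lone differentiating array was taken to vary like the others.

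In proliferating cells, 277 genes passed with Agilent's processed signals, 101 with no filter and 0 on the condition's arrays alone. Members called were 2 with median centring, where 0.747% of all genes passed, and 0 on the condition's arrays alone. In differentiating cells 338 genes passed with the filter on all 6 arrays, 969 without proliferating replicates 3 and 4, 285 with median centring, 2085 with array weights and 1586 (1 member) on the condition's arrays alone, without a dye term. For the difference, 71 genes passed with processed signals, 5 with the filter on all arrays, 4 with probe means (0 members), 24 without a dye term (0 members) and 153 with array weights; 0 genes and 0 members passed with no filter, with median centring or without replicates 3 and 4. After withdrawal in WT cells, 3 members passed with no filter (9.74% of all genes), 2 with probe means (13.4%) and 2 without replicates 3 and 4 (971 genes). In KO cells 2 members passed with no filter (9.7% of all genes), and 1209 genes passed without replicates 3 and 4. The cause was not tested.

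Whether samples with the same number pair across conditions could not be decided. Their deviations from the condition mean correlated at -0.369 and -0.288. Dye was not taken out of these deviations, and arrays of the same number carry KO RNA in opposite dyes. With the replicate block, 19 genes passed for the difference, 1418 for WT and 1688 for KO withdrawal, Cdk6 kept 1.80 in proliferating cells (limma, adjusted p = 0.0105), and 4 and 5 members fell in WT and KO cells; for withdrawal the intraspot correlation was taken from the fit without the block. The slide block was not run, since each slide holds 1 condition.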
